A study of Mus musculus with 4 samples.

Results

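The doublecortin and stathmin families were followed in brains of mouse embryos with a conditional double knockout of Sox4 and Sox11. The members are the 7 genes Dcx, Dclk1, Dclk2, Stmn1, Stmn2, Stmn3 and Stmn4, of 18193 genes with a symbol of their own on the array. Every probe set annotated with exactly 1 of these symbols was taken, 23 in all. The double-knockout (dko) brains carried Brn4::Cre with Sox4 flox/flox and Sox11 flox/flox alleles, and the control brains carried the same floxed alleles with no Cre named. All were whole brains taken at embryonic day 14.5 from a mixed 129SvJ/C57Bl/6J stock, with 2 arrays per genotype. Brn4 is another name of Pou3f4, and the labels do not say in which brain cells this Cre is active. They call the arrays biological replicates without stating whether an array held 1 embryo or a pool. A p-value here sets the genotype difference against the spread of these arrays, pooled in part over probe sets. The spread between single embryos is not known. The series title names the spinal cord, whereas every sample label names whole brain.

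Newborn neurons depend on microtubules to migrate and to grow axons, and the 2 families act on them in different ways. Doublecortin and its kinase relatives bind along the microtubule wall and stabilise it, and loss of DCX in humans causes lissencephaly, a failure of cortical neuron migration. Stathmins bind free tubulin and favour microtubule disassembly, and phosphorylation relieves this action. Sox4 and Sox11 are SoxC transcription factors of newly formed neurons, and Sox proteins in general recognise short DNA sequences such as ACAAAG and ACAATG.

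Promoter sequences are shown for 1 window each of the 4 members present in the RefSeq promoter table (GRCm38.p6), for Dcx and Dclk1 the one of their 2 windows that held a motif match, because they place genes that fell beside Stmn3, which did not pass the test. Each runs over 300 bases, 250 before and 50 after an annotated transcription start, 5′ to 3′ on the gene's strand. Capitals mark ACAAAG or ACAATG on either strand, so that CTTTGT is ACAAAG read on the opposite strand.
Dcx, chrX:143933075-143933374, - strand: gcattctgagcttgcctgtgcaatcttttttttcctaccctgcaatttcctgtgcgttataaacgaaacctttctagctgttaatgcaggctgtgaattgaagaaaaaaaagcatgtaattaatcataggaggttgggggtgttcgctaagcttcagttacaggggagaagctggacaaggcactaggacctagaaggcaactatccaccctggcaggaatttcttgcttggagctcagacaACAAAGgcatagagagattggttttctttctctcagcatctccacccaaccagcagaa
Dclk1, chr3:55242114-55242413, + strand: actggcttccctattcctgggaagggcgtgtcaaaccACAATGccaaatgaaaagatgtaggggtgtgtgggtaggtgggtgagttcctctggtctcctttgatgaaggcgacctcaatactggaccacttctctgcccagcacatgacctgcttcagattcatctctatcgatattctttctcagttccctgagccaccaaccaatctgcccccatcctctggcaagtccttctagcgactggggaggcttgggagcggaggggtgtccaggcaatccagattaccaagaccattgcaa
Dclk2, chr3:86920835-86921134, - strand: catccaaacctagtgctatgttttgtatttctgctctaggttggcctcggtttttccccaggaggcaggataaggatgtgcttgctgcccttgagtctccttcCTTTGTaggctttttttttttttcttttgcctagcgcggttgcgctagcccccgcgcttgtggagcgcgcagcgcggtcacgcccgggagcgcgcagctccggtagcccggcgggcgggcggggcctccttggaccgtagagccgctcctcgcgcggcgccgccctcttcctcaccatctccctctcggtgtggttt
Stmn3, chr2:181314451-181314750, - strand: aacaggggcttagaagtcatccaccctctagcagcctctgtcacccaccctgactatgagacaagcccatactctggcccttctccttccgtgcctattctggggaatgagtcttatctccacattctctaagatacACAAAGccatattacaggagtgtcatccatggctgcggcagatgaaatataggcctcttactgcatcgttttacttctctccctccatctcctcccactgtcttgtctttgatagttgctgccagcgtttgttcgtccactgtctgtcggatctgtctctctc
Of the 6 windows of these genes, 4 held 1 such match each and are the ones shown, at 8 bases before the start in Dcx, 213 in Dclk1, 147 in Dclk2 and 113 in Stmn3. The match was ACAATG in Dclk1 and ACAAAG in the others. The upstream second window of Dcx and the downstream second window of Dclk1 held none. Of all 32851 windows of this length, 28.6% held at least 1 of the 2 motifs, 18.7% held ACAAAG and 12.6% held ACAATG. Of 27025 genes, 31.7% had a match in at least 1 window. A match is a description of these letters and not a binding site, and the promoter of Stmn3 held one as those of Dcx, Dclk1 and Dclk2 did.

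The arrays give MAS5 signals, a brightness per probe set on a linear scale, in which every array had been brought to the same trimmed mean. A signal compares samples at 1 probe set and does not rank genes against each other. Changes are double knockout minus control on log2(signal + 16), and "fell" or "rose" means an adjusted p under 0.05 in limma, with Benjamini-Hochberg adjustment over all 27022 probe sets bright enough to be tested. The labels were checked first at the targeted genes: 6 of 6 tested Sox11 probe sets fell, while of 6 tested Sox4 probe sets 4 fell and 1 rose. Where these probe sets lie relative to the floxed parts was not examined. Of 8 tested genes of a brain list, Otx2 (-0.51), En2 (-0.74), Elavl3 (-0.72) and Tubb3 (-0.75) fell and Neurod1 (0.28) rose. Neurod1 had no call when any 1 array was left out. Elavl3 and Tubb3 are also in the list of neuronal markers, so they do not check brain against spinal cord. En1, a further gene of the brain list on the array, was not bright enough to be tested. Neurod2, which did not pass, read 3392 and 2799 on the double-knockout arrays and 2804 and 2547 on the control arrays. Medians were 263.7 and 269.2 on the double-knockout arrays and 287.6 and 262.6 on the control arrays.

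Transcripts of the doublecortin and stathmin families were lower in the double-knockout brains at most probe sets. Both probe sets of Stmn3 had overlapping groups, and the brightest of Stmn1 was lower on both double-knockout arrays without passing the test. Of the 23 probe sets, 20 passed the signal filter, and of these 17 fell, 0 rose (0 also at an unadjusted limma p under 0.05) and 3 did not pass the test. Over all tested probe sets, 11.6% fell and 11.7% rose. The median log2 change of the 20 was -0.49, against -0.01 over all tested probe sets. Of the 20, 4 belong to Dcx and 8 to Dclk1. Since the members were chosen with earlier results of these data known, these contrasts are a description and no test. At each gene's brightest probe set, 5 of the 7 genes fell (background 11% of 12489 genes), with a median log2 change of -0.38 against 0.06 over all genes. Stmn1 fell only at its dimmer probe set, and Stmn3 had no call at either of its own. Both double-knockout arrays lay below both control arrays at 18 of the 20 and above them at 0. Of all tested probe sets, 31.6% lay below in this way and 31.3% above. When the variance prior was not allowed to vary with signal, 9 of the 17 calls were made. With 1 array left out the count was 12 to 15, lowest without double knockout 2. A permutation test of a single probe set with 2 arrays against 2 cannot give a two-sided exact p below 0.333, so the calls rest on the variance shared across probe sets.

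**Figure D1:**
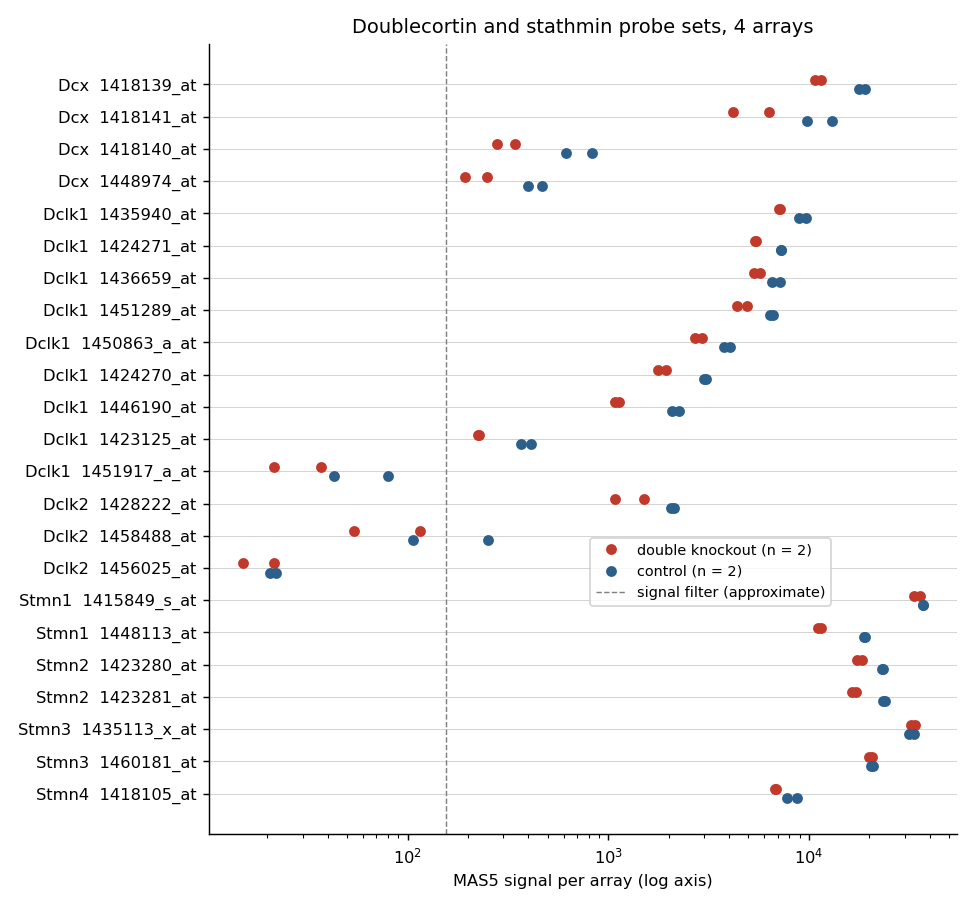
MAS5 signal (log axis) of all 23 probe sets on the 2 double-knockout arrays (red, upper points of each row) and the 2 control arrays (blue, lower points); the dashed line is the signal of 154.6 that corresponds to the filter. At all 4 Dcx probe sets the double-knockout points lie left of the control points, while those of Stmn3 overlap.

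Calls were divided unevenly between the families, while the changes spanned ranges of similar width. All 13 tested probe sets of Dcx, Dclk1 and Dclk2 fell, 8 of them from Dclk1. Their log2 changes were -1.16 to -0.32, with a median of -0.71. Of the 7 stathmin probe sets, 4 fell and 3 did not pass, with changes of -0.75 to 0.02 and a median of -0.27. The stathmin probe sets were also among the brightest on the arrays, at the 96.3rd percentile of signal or higher, while the doublecortin ones spanned the 52.1st to the 98.5th percentile. The difference between the families was not tested.

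Dcx, the X-linked founder of its family and a marker of migrating neurons, fell at 4 of 4 probe sets. Its brightest, 1418139_at, read 11446 and 10699 on the double-knockout arrays, against 17790 and 19001 on the control arrays. Double-knockout brains averaged 11073 ± 528 and control brains 18396 ± 857 (SD, n = 2 each). The log2 change was -0.73 with an SE of 0.07 (limma adjusted p = 0.000119). The groups were well apart, and this call was kept in all 14 alternative fits.

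The other Dcx probe sets gave larger changes with wider errors. At 1418141_at the signals were 6291 and 4165 in double-knockout brains and 13039 and 9770 in control brains, a log2 change of -1.14 ± 0.18 (limma adjusted p = 0.00148). At 1418140_at they were 344.0 and 278.7 in double-knockout brains and 826.8 and 614.5 in control brains, a change of -1.16 ± 0.20 (limma adjusted p = 0.00248). At 1448974_at they were 249.6 and 192.6 in double-knockout brains and 466.9 and 399.0 in control brains, a change of -0.93 ± 0.22 (limma adjusted p = 0.0123). No array of one genotype overlapped the other at any Dcx probe set, and the fold sizes lay between 1.66 and 2.24. The call of 1448974_at was lost without double knockout 2 (-0.75, limma adjusted p = 0.0882), and that of 1418141_at with a robust variance prior (limma adjusted p = 0.0601).

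Dclk1, which joins doublecortin domains to a protein kinase domain in its long forms and is made by radial glia as well as by neurons, had 9 probe sets. The 8 that were tested all fell, by fold sizes of 1.25 to 1.94. The brightest, 1435940_at, read 7214 and 7092 on the double-knockout arrays, against 9716 and 8880 on the control arrays, which is -0.38 ± 0.08 as log2 change (SE; limma adjusted p = 0.00693). This call was lost without control 1 (-0.31, limma adjusted p = 0.0665).

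The largest Dclk1 fall was at 1446190_at, with 1129 and 1081 in double-knockout brains and 2255 and 2067 in control brains (log2 change -0.96 ± 0.11, limma adjusted p = 0.000369). The signals at 1424270_at were 1935 and 1772 in double-knockout brains and 3065 and 2996 in control brains (-0.71 ± 0.10, limma adjusted p = 0.00107). The double-knockout arrays were thus close to each other and clearly below the control arrays at both. At 1423125_at the change was -0.75 ± 0.20, with signals of 226.4 and 225.4 in double-knockout brains and 413.0 and 369.2 in control brains. Its call (limma adjusted p = 0.0237) was lost without control 1 (-0.67), double knockout 1 (-0.75) or double knockout 2 (-0.75), and with no filter.

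The 4 remaining tested Dclk1 probe sets lay closer to the brightest one. Log2 changes were -0.48 at 1451289_at, -0.47 at 1450863_a_at, -0.42 at 1424271_at and -0.32 at 1436659_at. The last, with 5690 and 5306 in double-knockout brains and 6565 and 7181 in control brains, lost its call without control 2 (-0.26) or double knockout 2 (-0.27), with median centring (limma adjusted p = 0.112) and with no filter (limma adjusted p = 0.0523). All 4 lost it without the variance trend. The ninth, 1451917_a_at, was too dim to test, at 36.9 and 21.5 in double-knockout brains and 79.6 and 42.8 in control brains. Dclk1 has many annotated transcripts, and which of them each probe set detects was not examined.

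Dclk2, the second doublecortin-like kinase, was measured by 1 probe set above the filter. At 1428222_at the signals were 1505 and 1087 on the double-knockout arrays, against 2059 and 2129 on the control arrays. The log2 change was -0.70 ± 0.15 (SE; limma adjusted p = 0.0078). Double knockout 2 was the lowest of the 4 arrays, and without it the change was -0.47 and did not pass (limma adjusted p = 0.0513). The dim probe sets 1458488_at, at 115.7 and 54.1 in double-knockout brains and 251.1 and 106.2 in control brains, and 1456025_at, at 15.1 and 21.6 in double-knockout brains and 20.7 and 22.0 in control brains, were not tested and their groups overlapped.

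**Figure D2:**
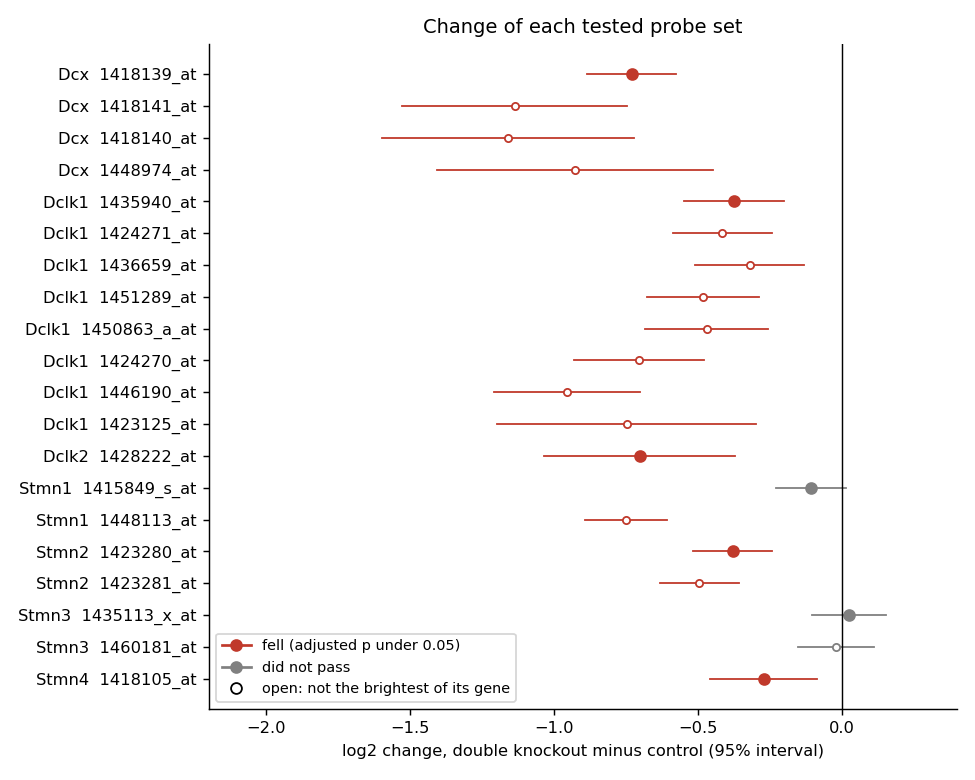
Log2 change (double knockout minus control) of the 20 tested probe sets with 95% intervals from limma; filled points are the brightest probe set of each gene, red points fell and grey points did not pass. All 13 doublecortin-family points lie left of 0, and the 2 Stmn3 intervals span 0.

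Stmn1, the cytosolic stathmin, which is made by cycling progenitors as well as by neurons, gave different answers at its 2 probe sets. At 1448113_at the signals were 11438 and 11057 on the double-knockout arrays, against 18728 and 19126 on the control arrays. The log2 change there was -0.75 ± 0.06 (SE; limma adjusted p = 7.11e-05), and the call was kept in all 13 alternative fits. At 1415849_s_at, the brightest, they were 35619 and 33459 in double-knockout brains and 37199 and 37215 in control brains. That change of -0.11 ± 0.06, with a 95% interval of -0.23 to 0.01, did not pass (limma adjusted p = 0.189), although both double-knockout arrays were below both control arrays. With quantile normalization it was -0.23 and passed (limma adjusted p = 0.00506), as did the mean of the 2 probe sets (-0.43, limma adjusted p = 0.000347).

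Within each array, the log2 ratio of 1448113_at to 1415849_s_at was -1.64 and -1.60 in double-knockout brains and -0.99 and -0.96 in control brains, with no overlap between the genotypes. The suffix s marks probes that can match more than 1 transcript, and 2 pseudogenes with the name of Stmn1 are in the RefSeq gene table. Their part in the signal was not tested. The signal of 1415849_s_at lay at the 99.9th percentile of all probe sets, and that of 1448113_at at the 98.5th. Ranked among the tested probe sets alone, 1415849_s_at was in the brightest 1% and 1448113_at between the 95th and 98th percentiles. Among the 271 tested probe sets of the brightest 1%, 31.7% were called, 9 that fell and 77 that rose, and the log2 changes spanned -0.74 to 0.58. Among the 811 between those percentiles they spanned -2.15 to 1.83, the upper end being that of a Sox4 probe set. The median size of the log2 change was 0.14 in the brightest 1% and 0.17 among the 811. Whether the brightest probe sets understate changes was not tested.

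Stmn2, also called SCG10, is a neuronal stathmin carried on Golgi-derived membranes to growth cones. It fell at both of its probe sets. At 1423280_at the signals were 18478 and 17343 on the double-knockout arrays, against 23241 and 23390 on the control arrays (log2 change -0.38 ± 0.06, SE; limma adjusted p = 0.00198). At 1423281_at they were 17179 and 16340 in double-knockout brains and 23933 and 23358 in control brains (-0.50 ± 0.06, limma adjusted p = 0.000456). The groups did not overlap at either, and both calls were kept with each array left out.

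Stmn3, the SCLIP protein, is a further neuronal stathmin with a membrane anchor, and its signal did not pass at either probe set. At 1435113_x_at the signals were 33633 and 32152 on the double-knockout arrays, against 31466 and 33251 on the control arrays. The log2 change was 0.02 ± 0.06 (limma adjusted p = 0.803), with a 95% interval of -0.10 to 0.15. At 1460181_at they were 20551 and 19962 in double-knockout brains and 20315 and 20826 in control brains (-0.02 ± 0.06, 95% interval -0.15 to 0.11, limma adjusted p = 0.825). The arrays of the 2 genotypes were interleaved at both. Whether the probes of 1435113_x_at also match other transcripts was not examined. The sign of 1435113_x_at turned with quantile normalization (-0.10) and that of 1460181_at with median centring (0.02).

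Stmn4, also called RB3 and a neuronal stathmin, fell by the smallest amount of the genes called. At 1418105_at the signals were 6745 and 6889 on the double-knockout arrays, against 7741 and 8767 on the control arrays. The log2 change was -0.27 ± 0.08 (SE; limma adjusted p = 0.0399), and the groups did not overlap. The call was lost without control 2 (-0.18, limma adjusted p = 0.302), double knockout 1 (-0.26) or double knockout 2 (-0.29), and with median centring (-0.23).

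**Figure D3:**
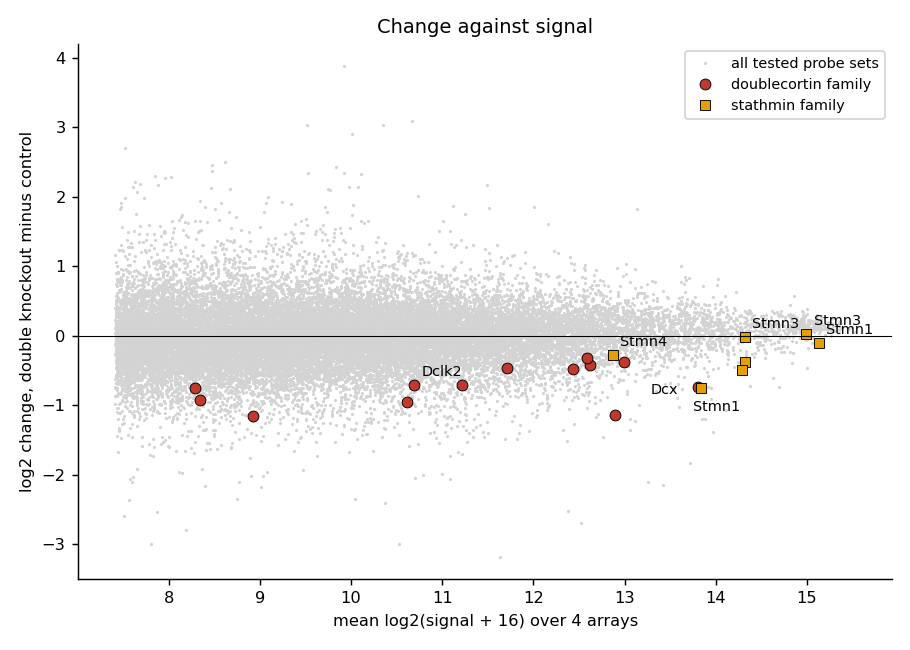
Log2 change (double knockout minus control) against the mean log2(signal + 16) over the 4 arrays, for all 27022 tested probe sets (grey), the doublecortin family (red circles) and the stathmin family (orange squares). The 2 brightest members, Stmn1 and Stmn3 near a mean log2 of 15, lie close to 0, in the brightest 1% of probe sets, whose changes spanned -0.74 to 0.58.

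Ratios within an array set the members against each other without the scaling of the arrays. The log2 ratio of Dcx to Stmn3, each at its brightest probe set, was -1.55 and -1.59 on the double-knockout arrays and -0.82 and -0.81 on the control arrays, a difference of -0.76. That of Stmn2 to Stmn3 was -0.86 and -0.89 in double-knockout brains and -0.44 and -0.51 in control brains. That of Dcx to Stmn2 was -0.69 and -0.70 in double-knockout brains and -0.39 and -0.30 in control brains. In each case the genotypes did not overlap. These ratios restate the changes above and are no further test, and those to Stmn3 rest on a probe set in the brightest 1% of those tested. The other Stmn3 probe set, 1460181_at (log2 change -0.02), had a mean log2 of 14.32. So had 1423280_at of Stmn2, which fell (-0.38).

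Most neuronal markers outside the 2 families fell as well. Of 18 listed neuronal markers, 11 fell, 2 rose and 5 did not pass, with a median log2 change of -0.39. Of all genes tested, 11% fell and 16.3% rose. Ina (-1.02), a neuronal intermediate filament, Nsg1 (-0.75), a vesicle protein, Tubb3 (-0.75), a neuronal tubulin, and Elavl3 (-0.72), an RNA-binding protein, fell, and each call was kept with each array left out. Eno2 (1.28), a glycolytic enzyme of neurons, and Snap25 (0.62), a protein of vesicle fusion, rose and kept their calls in the same way. In whole brain RNA, fewer neurons and less RNA per neuron cannot be told apart.

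Relative to the mean log2 of the neuronal markers on the same array, the distances between members are those given above, since 1 value per array is subtracted. Dcx stood at 0.25 and 0.22 above that mean on the double-knockout arrays and at 0.69 and 0.71 above it on the control arrays, a difference of -0.47. Dclk2 differed by -0.44 on this scale, Stmn2 by -0.12, Dclk1 by -0.11 and Stmn4 by -0.01. Stmn3 was higher relative to the markers, at 1.80 and 1.81 in double-knockout brains and 1.51 and 1.52 in control brains, and Stmn1 at its brightest probe set differed by 0.16. The mean of the markers itself differed by -0.27 between the genotypes, while their median change was -0.39. Of the 18 markers 11 fell, but the mean also includes Eno2 (1.28) and Snap25 (0.62), which rose. Small differences on this scale therefore depend on the choice of reference. The differences of the members from the markers were not tested.

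Genes that share migration pathways with doublecortin fell at a share close to that of all genes. Of 16 measured genes of neuronal migration and lissencephaly, 2 fell (12.5%, against 11% of all genes tested), 0 rose (against 16.3%; 3 were higher at an unadjusted limma p under 0.05) and 14 did not pass, with a median log2 change of -0.03. Those that fell were Tubb3, also counted among the neuronal markers, and Tubb2b (-0.24), a beta tubulin. Tubb2b lost its call without control 1 (-0.23), control 2 (-0.26) or double knockout 1 (-0.12), and the count that fell was 1 without either control array. Pafah1b1, the other classical lissencephaly gene, which encodes the dynein regulator LIS1, read 7641 and 7474 in double-knockout brains and 6862 and 6794 in control brains (log2 change 0.15, limma adjusted p = 0.189). Reln, the secreted guide of cortical layering, had a log2 change of 0.18 (limma adjusted p = 0.106).

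Among 24 measured regulators of doublecortin and the stathmins, 3 fell (12.5%), 5 rose (20.8%) and 16 did not pass, with a median log2 change of 0.13. These shares are close to the 11% and 16.3% over all genes, so the genes named next are described singly and not as a property of the list. Cdk5r1 (-0.59), the p35 activator of the doublecortin kinase Cdk5, fell, with 8145 and 7364 in double-knockout brains and 11555 and 11751 in control brains (limma adjusted p = 0.000602). Mapk8 (-0.50), the kinase JNK1 that phosphorylates doublecortin and stathmins, and Ppp1r9a (-0.36), the phosphatase-targeting protein neurabin, also fell. Cdkn1b (0.84), a cell cycle inhibitor that binds stathmin, rose. So did Aurkb (0.78) and Cdk1 (0.43), mitotic kinases that phosphorylate stathmin and are also counted among the markers of cycling cells. Camk4 (0.39), a further stathmin kinase, and Ppp1ca (0.30), a phosphatase subunit, rose as well. Cdk5 itself had a log2 change of 0.15 (limma adjusted p = 0.309), and Rest, the repressor known to act on Stmn2, one of -0.14 (limma adjusted p = 0.585). The calls of Cdk5r1, Mapk8 and Cdkn1b were kept with each array left out. Ppp1r9a lost its call without control 1 (-0.32) or double knockout 2 (-0.21), and Ppp1ca without control 1 (0.25) or double knockout 1 (0.26). Camk4 lost it without control 1 (0.28), double knockout 1 (0.47) or double knockout 2 (0.31). Aurkb lost it without control 2 (0.49), double knockout 1 (0.67) or double knockout 2 (0.89), and so did Cdk1 (0.31, 0.43 and 0.43). The number of regulators that rose was 3 without control 2, 1 without double knockout 1 and 2 without double knockout 2.

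The more distant doublecortin-domain genes were dim in these brains. Of 6 on the array, Dcdc2a, Dcdc2b and Dclk3 passed the signal filter, and in limma 0 were called in either direction (1 was higher at an unadjusted p under 0.05). Dcdc2a read 305.7 and 368.7 in double-knockout brains and 216.3 and 213.0 in control brains (log2 change 0.61 ± 0.22, limma adjusted p = 0.0687), and it passed with median centring and without the variance trend. Dclk3, the remaining doublecortin-like kinase, had a log2 change of -0.28 (limma adjusted p = 0.406).

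Markers of other cells differed between the genotypes in the same arrays, where 16.3% of all genes rose. Microglial markers had summed signals of 22872 to 25288 in double-knockout brains and 6653 to 7529 in control brains, and 10 of 10 tested rose, with Mpeg1 (2.35), C1qa (2.14), C1qb (2.01) and C1qc (1.88) the largest. Markers of cycling cells summed to 35643 to 35819 in double-knockout brains and 22505 to 24923 in control brains, and 8 of 11 rose, among them Birc5 (0.88), Mki67 (0.76), Aurkb (0.78) and Kif11 (0.69). Those of vessels and mesenchyme summed to 42690 to 43790 in double-knockout brains and 32369 to 33419 in control brains, with 7 of 11 risen, the largest being Tek (0.65), Cdh5 (0.50), Kdr (0.47) and Cldn5 (0.42). Radial glial markers summed to 79348 to 81396 in double-knockout brains and 73282 to 77760 in control brains, with 3 of 9 risen, Nes (0.61), Pax6 (0.44) and Vim (0.22), and 1 fallen, Prom1 (-0.77). Red cell genes had 0 calls in limma among 4 tested, 0 also at an unadjusted p under 0.05, with sums of 39158 to 40017 in double-knockout brains and 37551 to 37972 in control brains. Itgam, Trem2 and Hba-a1 did not pass the signal filter and were not tested, but are part of the sums. A sum is carried by its brightest genes. Hbb-y, in the red cell sum, read 34579 and 35893 in double-knockout brains and 33813 and 33870 in control brains. Fabp7, in the radial glial sum, read 32981 and 33537 in double-knockout brains and 33887 and 30858 in control brains. The number of cycling markers that rose was 4 without double knockout 1 and 5 without double knockout 2. That of vessel and mesenchymal markers was 2 without control 1, 4 without double knockout 1 and 3 without double knockout 2, and that of radial glial markers was 1 without control 2 or without double knockout 1. Of the single markers named here, Aurkb, Kif11, Tek, Cdh5, Kdr, Cldn5, Nes, Pax6 and Vim each lost the call with at least 1 array left out. Vim also lost it with quantile normalization, with median centring and with no filter, and Aurkb, Kdr and Tek with no filter. The change of Tek was 0.42 without control 1, and that of Kif11 was 0.45 without control 2, where it kept its call. The part of these cells in the lower doublecortin and stathmin signals was not tested.

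**Figure D4:**
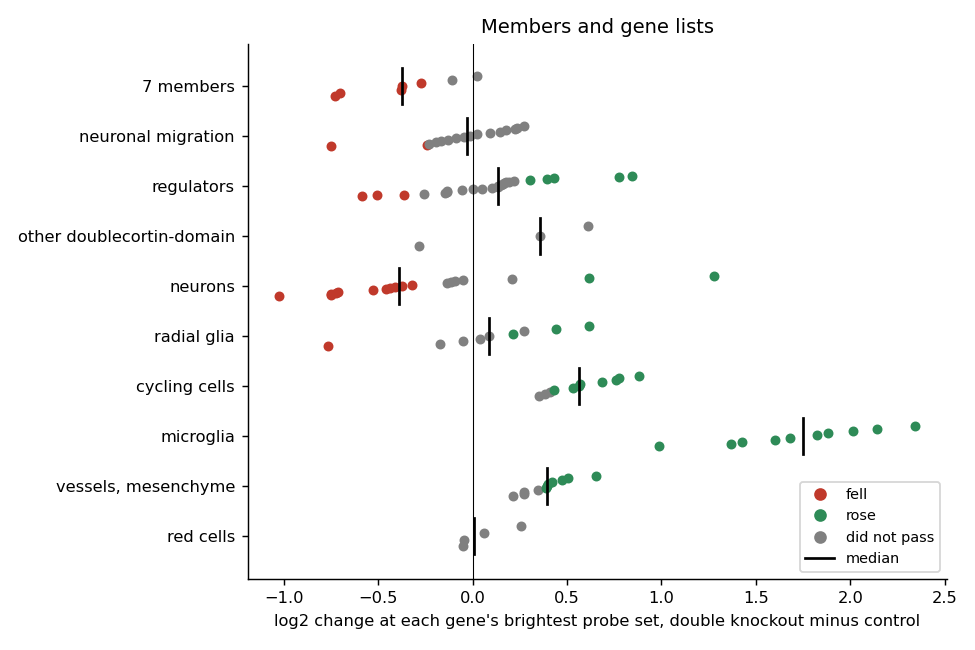
Log2 change (double knockout minus control) of the 7 members and of the tested genes of each list, at each gene's brightest probe set; red points fell, green points rose, grey points did not pass, and the black bar is the median. The members and the neuronal markers have medians of -0.38 and -0.39, the migration genes one of -0.03, and the microglial markers one of 1.75.

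The genes whose pattern over the 4 arrays was nearest to that of Dcx were Chrnb2, a nicotinic acetylcholine receptor subunit, Nt5dc3 and Cttnbp2nl. Their distances from Dcx in mean-centred log2 values were 0.01, 0.03 and 0.05, among 7955 genes brighter than the median probe set. Chrnb2 read 839.6 and 774.2 in double-knockout brains and 1299 and 1396 in control brains. The nearest to Stmn2 were Ehd1, Slc38a1, an amino acid transporter, and Nfya, a subunit of a CCAAT-binding factor, at distances of 0.02, 0.03 and 0.03. The falls of Ehd1 (-0.36) and Nfya (-0.37) lost their calls with each of the 4 arrays left out. A pattern over 4 arrays is mainly the difference between the genotypes, and many genes share it.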

How the data were processed

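Total RNA of whole brains was amplified, labelled with biotin and hybridised to 1-colour Affymetrix arrays, per the labels' protocols. The deposited intensities, 1 per probe set, are linear and come from MAS5 (version 5.0), per the submitters' processing notes. Every array had a mean of 1000 once the outer 2% on both sides were trimmed, so a shift of most transcripts in 1 genotype would have been scaled away. The number of arrays limits the precision. The labels name no genome build for the probe sets, and GRCm38.p6 is that of the RefSeq promoter table. Groups and replicate numbers came from the sample titles.

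Of 45101 probe sets, 64 array controls were left out. Symbols came from the platform annotation, where 34945 of the others had 1 symbol, 932 several and 9160 none. Probe sets whose mean log2(signal + 16) exceeded the 40th percentile (signal 154.6) were kept, 27022 in all, and tested with limma 3.58.1 in R 4.3.3 (lmFit, eBayes with a variance trend, Benjamini-Hochberg). Fold changes on this scale understate changes of dim probe sets. A gene with several probe sets is represented by the brightest. Intervals use the moderated variance with 2 residual and 8.33 prior degrees of freedom. Same-numbered arrays did not deviate together (r = 0.003 across probe sets).

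The members, lists, naming rule and alternatives were chosen with earlier results of these data known. The rule named all member probe sets, the 4 largest changes of each list, every gene in a count of 5 or fewer, and the 3 nearest genes to Dcx and Stmn2. Cdk5, Rest, Pafah1b1, Reln, Dclk3, Dcdc2a and Neurod2 were named after their values were seen, for their roles. Listed genes with no symbol of their own on the array were not analysed here. The steps were also run on simulated arrays with independent noise and few changed probe sets. That run does not check the calls made here, where a far larger share of probe sets was called.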

Additional observations from a re-analysis of the deposited data

How the results depend on the processing

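The member counts, the log2 changes of the 20 tested member probe sets and the list counts were recomputed under 14 further settings, and gene values also with the probe sets of a gene averaged. Of the 265 member changes from these other fits, the looser threshold left out, 234 kept direction and side of the threshold, 25 lost the call, 2 gained it and 4 turned sign. Of the 17 that fell, 6 kept the call under every alternative run and 11 with each array left out. Without a variance trend 9 member probe sets fell, and over all probe sets 1643 fell and 1471 rose. Calls were then lost at the brightest probe sets of Dclk1 (-0.38), Dclk2 (-0.70), Stmn2 (-0.38) and Stmn4 (-0.27). Stmn4 was also lost with median centring (-0.23) and with no filter (-0.27), as was Dclk1 1436659_at (-0.28 and -0.32). The brightest Stmn1 probe set passed with quantile normalization (-0.23) and, with both probe sets averaged, at -0.43. Stmn3 1435113_x_at turned with quantile normalization (-0.10), without control 1 (-0.016) and without double knockout 1 (-0.0087), and 1460181_at with median centring (0.0192). The causes were not tested.

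With 1 array left out, the single remaining array of its genotype is assumed to vary like the pair. Then 1674 to 2811 of all probe sets fell and 1458 to 2611 rose. Brightest values ranged over -0.44 to -0.31 for Dclk1, -0.94 to -0.47 for Dclk2, -0.153 to -0.0629 for Stmn1 (-0.0629 without double knockout 2), -0.016 to 0.0636 for Stmn3 and -0.36 to -0.18 for Stmn4. Migration genes that fell numbered 1 to 2, regulators that rose 1 to 4, radial glial genes that rose 1 to 2, cycling genes that rose 4 to 9, and vessel and mesenchymal genes that rose 2 to 6.

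Without the variance trend, 1 migration gene and 1 regulator fell, 0 regulators rose, 1 distant doublecortin-domain gene rose, 5 neuronal markers fell, and 1 radial glial, 4 cycling and 1 vessel or mesenchymal marker rose. With no filter 1 migration gene fell, and 3 regulators and 4 vessel or mesenchymal markers rose. With median centring 1 migration gene fell and 1 distant doublecortin-domain gene rose. At an adjusted p under 0.1 in limma, 2 migration genes and 1 distant doublecortin-domain gene rose. Of the single genes named outside the members, Aurkb, Camk4, Kdr, Neurod1, Ppp1r9a, Tek, Tubb2b, Vim, Ehd1 and Nfya lost the call with no filter, and Neurod1, Ppp1r9a, Tubb2b, Vim, Ehd1, Nfya and Slc38a1 with median centring. Without the variance trend all of these lost it, and so did Cdk1, Cdkn1b, Cldn5, Kif11, Mapk8, Otx2, Pax6 and Ppp1ca. Scaling moved the median of all probe sets little, to 0.00 with quantile normalization and 0.03 with median centring. With the replicate number as a block, 17 member probe sets fell and 0 rose, and over all probe sets 3430 fell and 3414 rose. The titles give no sign that a number pairs embryos.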
